A study of Caenorhabditis elegans with 2 samples.

Results

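The cytosolic chaperonin CCT (also called TRiC) is a barrel-shaped machine of the cytoplasm, built of stacked rings in which each position is taken by a different but related subunit. It takes in newly made proteins, above all actin and tubulin, and uses ATP to fold them in its closed cavity, so that growing and dividing cells depend on it for their cytoskeleton. In the nematode Caenorhabditis elegans its subunits are encoded by cct-1 to cct-8, the genes for the alpha, beta, gamma, delta, epsilon, zeta, eta and theta subunits in that order. These 8 genes, of 19973 protein-coding genes on the nuclear chromosomes, are described here by the regions that chromatin immunoprecipitation sequencing (ChIP-seq) of the nuclear hormone receptor NHR-28 gave in and around them.

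The worms were whole L3 larvae, male and female pooled, of strain OP317, which carries unc-119(ed3) III and the insertion wgIs317, an eGFP-tagged nhr-28. The labels do not name the promoter that drives the tagged receptor. The series held 1 group of 2 biological replicates and no second condition, and the control sample was not analysed here. Whole larvae were used, so a strong signal in few cells and a weak signal in many cannot be told apart, and whether the signal at any gene depends on NHR-28 was not tested.

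The authors' candidate lists on build ce11, which hold peaks together with background, had 30000 regions for each replicate (350 bp wide in replicate 1 and 340 bp in replicate 2) and 20876 regions of 340 bp for the pooled reads. Their final list, kept by the irreproducible discovery rate (IDR, a measure of agreement between replicates), had 162 peaks. Signals are the authors' values per region on a scale that is not stated, and rank 1 is the strongest region of its list. Most candidate regions were weak: the q value was under 0.05 for 1.47% of the pooled regions. The lists hold no read counts, so the depth is unknown, and every value below is a description with no test.

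The 8 genes were selected on a shared name and on earlier results of these data, in which cct-1 had a final peak. The values that chose them are the regions in the 3 candidate lists that overlapped the gene or 2000 bp either side of it. A pooled region was found for 6 of the 8 genes, against 74.5% of all protein-coding genes. In replicate 1 it was 7 of 8, against 85.9% of all genes, and in replicate 2 also 7 of 8, against 85.6%. These shares are close to those of genes in general, and the 8 genes differed from each other in where the region lay and how it ranked.

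The strongest regions lay upstream of cct-1, cct-8 and cct-6. The sequence around each pooled summit is shown because these are the only regions of the 8 genes in the top 1000 of the pooled list. The letters are the plus strand of the NCBI RefSeq sequence of WBcel235, the same assembly as ce11. They run from 100 bp before to 100 bp after the summit for cct-1 (chrII:8185123-8185323) and cct-8 (chrIV:1094272-1094472). For cct-6 (chrIII:5856158-5856274) they start at the first base of the intron that holds the summit, since the bases before it belong to an untranslated exon. Capitals mark matches to the inverted repeats GAANNTTC and TTCNNGAA, the core arrangement of a heat shock element.
cct-1: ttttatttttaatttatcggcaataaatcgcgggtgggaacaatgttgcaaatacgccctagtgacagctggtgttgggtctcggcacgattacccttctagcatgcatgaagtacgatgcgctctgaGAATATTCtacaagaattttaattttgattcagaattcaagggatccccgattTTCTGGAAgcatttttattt
cct-8: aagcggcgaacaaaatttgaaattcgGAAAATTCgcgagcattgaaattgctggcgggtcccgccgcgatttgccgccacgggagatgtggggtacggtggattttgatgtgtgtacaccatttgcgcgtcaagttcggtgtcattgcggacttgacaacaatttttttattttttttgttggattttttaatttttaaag
cct-6: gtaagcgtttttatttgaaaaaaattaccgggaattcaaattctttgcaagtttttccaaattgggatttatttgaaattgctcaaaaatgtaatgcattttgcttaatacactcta

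The gene cct-1 (chromosome II, 8185443 to 8187601, plus strand) encodes CCT alpha. Its region from 8185053 to 8185392 had a pooled signal of 44.7 at rank 62. Its q value was 0.00592, the lowest in the pooled list. It was the only region of the 8 genes in the final list. The signal was 13.7 in replicate 1, at rank 257, and 28.01 in replicate 2, at rank 84. The summits of the 3 lists lay 220, 209 and 222 bp upstream of the annotated transcription start site (TSS), and thus within 13 bp of each other. The stretch between cct-1 and its neighbour mig-5, a Dishevelled gene of the Wnt pathway that is transcribed in the opposite direction, is 419 bp long, and the whole region lay inside it. The pooled summit was 200 bp from the start of mig-5 and 220 bp from that of cct-1. In replicate 1 cct-1 was the nearer gene, at 209 bp, so the nearest gene changed with the list.

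At cct-8 (chromosome IV, 1087108 to 1093920, minus strand), which encodes CCT theta, the region from 1094202 to 1094541 had a pooled signal of 28.5 at rank 261. Its q value of 0.0365 was under 0.05, but the region was not in the final list. The signal was 12.8 in replicate 1 (rank 350) and 16.1 in replicate 2 (rank 1003), with q values of 0.0351 and 0.142. The value of 0.0351 is the lowest in the replicate 1 list and is not particular to this region. The pooled summit lay 452 bp upstream of cct-8 and 169 bp from the start of Y55F3AR.2, which faces it across a gap of 620 bp. A second region in an intron of cct-8, 1088650 to 1088999, ranked 472 in replicate 1 with a signal of 12.1. Its pooled counterpart ranked 9469, and replicate 2 had no region that overlapped it, so this internal region rests on replicate 1.

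The third gene, cct-6 (chromosome III, 5853530 to 5855687, minus strand), encodes CCT zeta. Its region from 5856004 to 5856343 had a pooled signal of 21.4 at rank 991, just inside the strongest 1000, with a q value of 0.32. The replicates gave signals of 7.40 (rank 5344) and 12.02 (rank 4637). The summit lay 487 bp upstream of cct-6 but inside the facing gene, in an intron of alh-9, which encodes an aldehyde dehydrogenase. It was 156 bp downstream of an alh-9 start, and the gap between the genes is 330 bp.

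**Figure D1:**
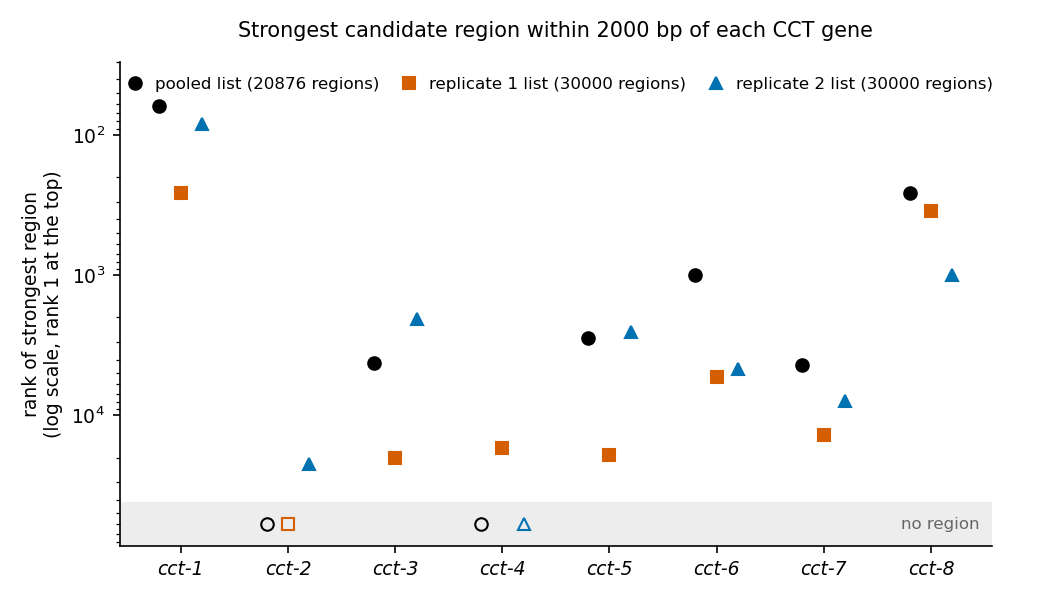
Rank of the strongest candidate region within 2000 bp of each CCT gene in the pooled list (black circles), replicate 1 (orange squares) and replicate 2 (blue triangles), on a log axis with rank 1 at the top and open symbols for lists with no region. In the pooled list cct-1 (62), cct-8 (261) and cct-6 (991) stand above cct-5 (2803), cct-3 (4259) and cct-7 (4390), while cct-2 and cct-4 have no region.

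Among the chaperonin genes, the 3 promoter regions kept the same order in both replicates, but not every step was larger than the spread between them. These regions were picked as the strongest in the pool of the same 2 replicates, so their order is a description and no test. On the log2 scale the signal of cct-1 exceeded that of cct-8 by 0.10 in replicate 1 and by 0.80 in replicate 2, a mean difference of 0.45 ± 0.50 (SD, n = 2), so these neighbours in the order did not differ beyond the replicate spread. The signal of cct-8 exceeded that of cct-6 by 0.79 and 0.42, a mean of 0.61 ± 0.26 (SD, n = 2). Between cct-1 and cct-6 the mean difference was 1.05 ± 0.24 (SD, n = 2). By rank, cct-6 was slightly better placed in replicate 2 than in replicate 1, cct-1 better placed in replicate 2 and cct-8 in replicate 1. The log2 ratio of replicate 2 to replicate 1 was 1.03 at cct-1, 0.33 at cct-8 and 0.70 at cct-6. Across the 1000 strongest pooled regions, of which 87% had a region in both replicates, this ratio had a median of 0.88 and an SD of 0.76, so all 3 genes lay within 1 SD of the usual ratio.

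**Figure D2:**
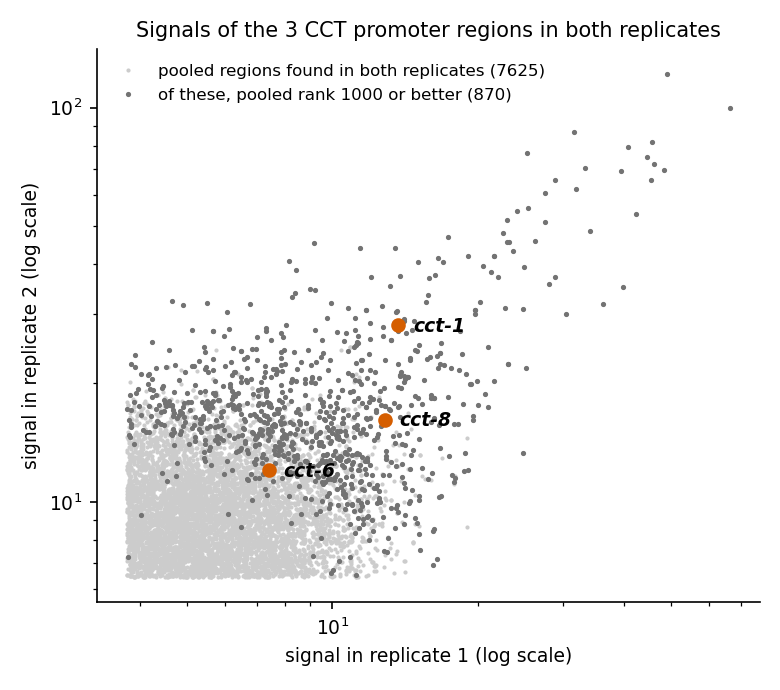
Signal of each pooled region in replicate 1 (horizontal axis) and replicate 2 (vertical axis), both on log scales, for the 7625 pooled regions that overlap a region in both replicates (light grey) and the 870 of these with pooled rank 1000 or better (dark grey). The promoter regions of cct-1, cct-8 and cct-6 (orange) lie inside the cloud, with cct-1 highest at 13.7 and 28.01.

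The promoter window was set at 1000 bp before to 500 bp after an annotated TSS, and many worm messages are trans-spliced, so an annotated start may lie downstream of the real one. A pooled summit lay in the window of 4 of the 8 genes (cct-1, cct-6, cct-7 and cct-8), against 34.2% of all genes. Within the strongest 1000 pooled regions it was 3 of 8 (cct-1, cct-6 and cct-8), against 2.69% of all genes. In the list of replicate 2 alone it was 1 (cct-1), against 2.57% of all genes, and in that of replicate 1 alone it was 2 (cct-1 and cct-8), against 2.53%. Summits in both replicate lists were found for 3 genes (cct-1, cct-6 and cct-8), against 24.5% of all genes. With a pooled q value under 0.05 there were 2 (cct-1 and cct-8), against 1.1% of all genes, and a final peak was present at 1 (cct-1), against 0.596%. Since the genes were chosen with these lists known, nothing is read from these differences. Of all genes, 0.22% had a stronger promoter region than cct-1, 0.926% a stronger one than cct-8 and 2.67% a stronger one than cct-6.

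**Figure D3:**
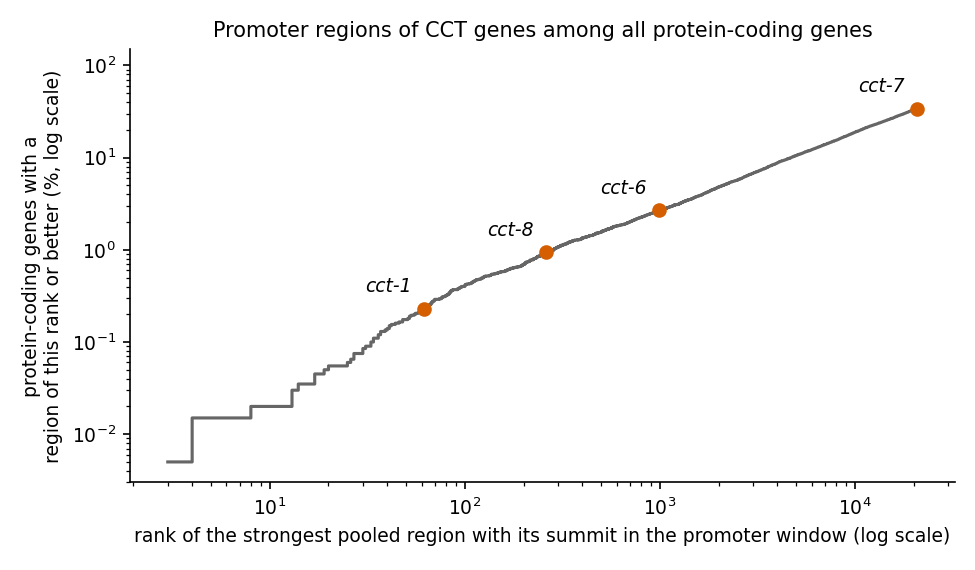
Share of the 19973 protein-coding genes (vertical axis, percent, log scale) whose strongest pooled promoter region has a given rank or better (horizontal axis, log scale). The orange points mark cct-1 at rank 62, cct-8 at 261, cct-6 at 991 and cct-7 at 20826, near the weak end of the list.

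None of the pooled promoter summits had a CCT gene as the nearest start: the nearer genes were mig-5, Y55F3AR.2, alh-9 and T10B5.4. Single replicates did hold such summits. In replicate 1 they were at cct-1 (rank 257, 209 bp) and at cct-6 (rank 7823, 494 bp). In replicate 2 there was a summit 58 bp from the start of cct-8, at rank 13778. All 8 CCT genes have as their nearest upstream protein-coding neighbour a gene transcribed the other way, an arrangement found for 45.4% of all genes. For 6 of the 8 the gap is 1000 bp or less, as it is for 17.5% of all genes. The gene order comes from the annotation and not from the ChIP signal. Among all head-to-head genes, 3.19% had a promoter summit in the strongest 1000 pooled regions, and 4.42% of those with a gap of 1000 bp or less. For genes whose upstream neighbour runs in the same direction it was 2.29%, with no gap limit. A summit in a short gap can lie in the promoter windows of both facing genes. Whether the arrangement bears on the CCT regions was not tested.

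The CCT genes that share a short gap did not all carry a strong region. The gene cct-4 (chromosome II, 8283667 to 8285711, plus strand), for CCT delta, faces the nucleostemin gene nst-1 across 458 bp. Its only region was in replicate 1, from 8283067 to 8283416, with a signal of 5.06 at rank 17030 and a q value of 0.626, and its summit was 34 bp from the start of nst-1. The gene cct-7 (chromosome V, 1872246 to 1875505, plus strand), for CCT eta, faces T10B5.4 across 438 bp. Its pooled promoter summit, 749 bp upstream and within an intron of T10B5.4, had a signal of 10.42 at rank 20826 of 20876, where the weakest region of the list had 10.41. Replicate 2 had regions there at ranks 11929 and 27055, and replicate 1 had none. The gene cct-5 (chromosome III, 4499188 to 4508114, minus strand), for CCT epsilon, faces F25F2.1 across 740 bp, and no list had a region in that gap.

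**Figure D4:**
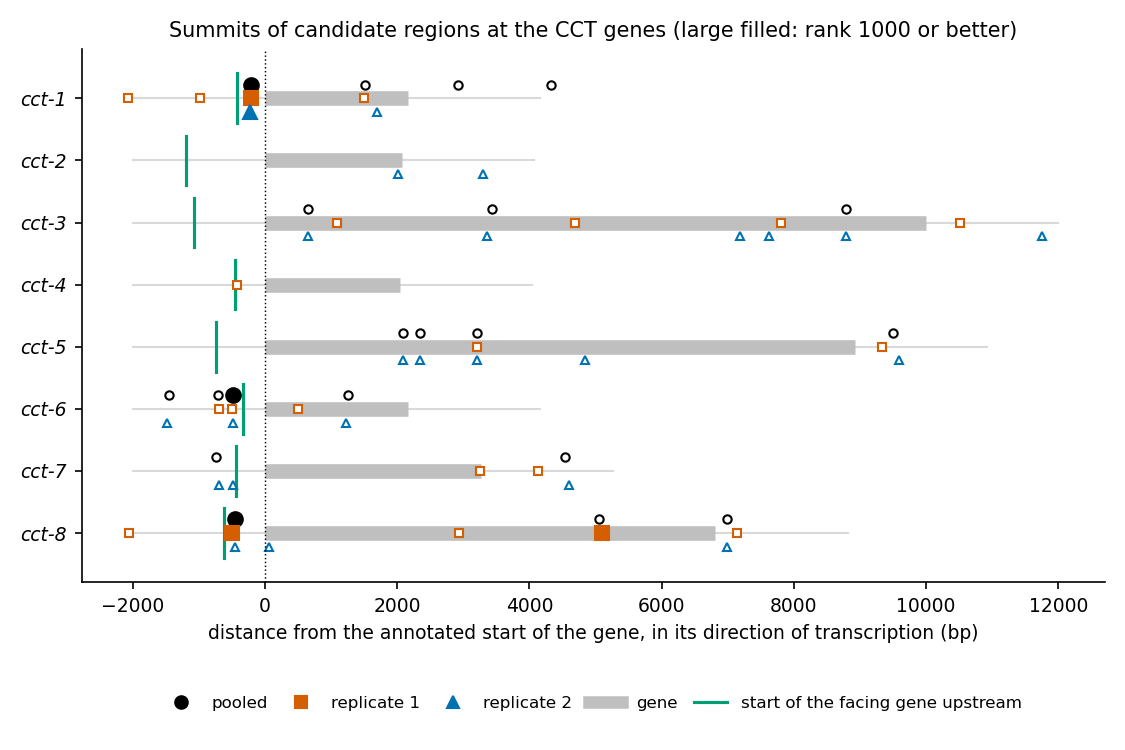
Position of every candidate summit within 2000 bp of the 8 CCT genes, as distance from the annotated start in the direction of transcription (bp), for the pooled list (black), replicate 1 (orange) and replicate 2 (blue), with the gene as a grey bar, the start of the facing upstream gene as a green tick and large filled symbols for rank 1000 or better. Summits of all 3 lists fall together upstream of cct-1, cct-6 and cct-8. Those in the long genes cct-3 and cct-5 are spread along the gene. In an intron of cct-5, weak summits of all 3 lists also fall together. They lie 3206, 3211 and 3206 bp downstream of the start in the pooled, replicate 1 and replicate 2 lists (ranks 12588, 21183 and 25097).

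Within gene bodies, the long genes cct-3 and cct-5 held most of the remaining regions. The gene cct-3 (chromosome II, 2233540 to 2243539, plus strand) encodes CCT gamma and is 10000 bp long. All 3 of its pooled regions lay in its introns. The strongest, 2236807 to 2237146, had its summit 3437 bp downstream of the TSS, with a pooled signal of 16.3 at rank 4259. In replicate 2 the matching region ranked 2043 with a signal of 14.3, whereas replicate 1 had no region overlapping it and ranked its best region at cct-3 20145.

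The gene cct-5, 8927 bp long, also held 3 pooled regions in its introns. The strongest, 4505854 to 4506193, had its summit 2090 bp downstream of the TSS, with a pooled signal of 17.7 at rank 2803. It ranked 2525 in replicate 2 with a signal of 13.7, and no region of replicate 1 overlapped it. At both genes only replicate 2 had a region matching the strongest pooled one. The q values of these pooled regions were 0.701 and 0.602.

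For cct-7 the best pooled region within 2000 bp lay beyond its 3′ end, in an intron of zig-11 (1876620 to 1876959, signal 16.2, rank 4390), with regions near it at rank 13812 in replicate 1 and 7867 in replicate 2. At cct-1 a pooled region in a coding exon, 1513 bp downstream of the TSS, had a signal of 13.2 at rank 9965. At cct-6 a pooled region in a coding exon had a signal of 12.5 at rank 12039. Over all 8 genes there were 20 pooled regions, of which 15 had their summit in an intron of a CCT gene or a neighbour, 3 in a coding exon and 2 between genes. The genes had a median of 3 pooled regions each and a median length of 2709.5 bp, against 1 region and 2027 bp for all protein-coding genes. These region counts include regions in neighbouring genes and are among the values that chose the genes, so nothing is read from them.

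The gene cct-2 (chromosome II, 8927741 to 8929815, plus strand), for CCT beta, had weak regions in 1 list. No pooled or replicate 1 region lay within 2000 bp, and replicate 2 had regions at ranks 22117 and 22584, with signals of 7.47 and 7.40. Their summits lay 90 bp from the start of mrpl-50, a mitochondrial ribosomal protein gene, and 37 bp from that of the enolase gene enol-1. The nearest pooled region outside the window was 3890 bp from cct-2, at rank 1271 with a signal of 20.4, and 4419 bp from cct-4, at rank 18212 with a signal of 10.9. The pooled region just inside the limit was 2000 bp from cct-1 (rank 3025, signal 17.4), and the one just outside was 2083 bp from cct-5 (rank 14411, signal 11.9).

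The median over the 8 genes of the best pooled rank was 3531, with a gene without a region set at 20877, against 10047 over all protein-coding genes. This median depended on the replicate: it was 3581 in replicate 2, where all genes had 9955, and 15421 in replicate 1, where all genes had 9976. The replicate lists are longer, at 30000 regions each, and there a gene without a region was set just past the last rank. These ranks are among the values that chose the genes, so nothing is read from the medians.

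The 3 strongest promoter regions were compared for what their sequence holds. Their GC content was 33.2% for cct-1, 35.9% for cct-8 and 35% for cct-6, against a median of 33.5% over the pooled regions with a summit in a promoter window. Over the whole 340 bp, the cct-1 region held 1 match to GAANNTTC, centred 31 bp from the summit, and 1 to TTCNNGAA, centred 84 bp from it. The cct-8 region held 2 matches to GAANNTTC, of which the one marked above begins at 1094298 and the other begins at 1094250. The cct-6 region held 1 match to TTCNNGAA, in the untranslated first exon of alh-9. Each of these motifs reads the same on both strands, the 2 can overlap in a longer repeat, and no matches overlapped here. GAANNTTC was present in 21.9% and TTCNNGAA in 23.4% of the 7337 pooled promoter regions, so a match is common. Neither AGGTCA, a hexamer that nuclear receptors recognise (8.33% of promoter regions, both strands searched), nor CTGCGTCTC (2.52%) was found in any of the 3 regions, which says only that these letters are not in these windows.

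The genes whose promoter ranks came closest to those of cct-1 were looked up among the 3770 genes with a promoter summit in all 3 candidate lists, by Euclidean distance of the log2 ranks. The closest was mig-5, at a distance of 0 because it shares the region. Next came hsp-90, the gene of the cytosolic chaperone Hsp90, and C47E8.4, both at 0.259, which share a region at rank 63 in the pooled list, 273 in replicate 1 and 71 in replicate 2. Close behind, at 0.293, were C33A12.3 and C33A12.4, both at rank 68 in the pooled list, 218 in replicate 1 and 78 in replicate 2. These likenesses rest on 2 replicates and their pool.

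Other genes of the folding pathway were counted in the same way, with 2.69% of all genes having a promoter summit among the strongest 1000 pooled regions. Prefoldin, the complex that hands unfolded actin and tubulin to CCT, had 1 of 6 genes there: pfd-1 (chromosome IV, 11149586 to 11149925) had a signal of 26.5 at rank 348, and ranked 338 in replicate 1 and 3152 in replicate 2. Of the other prefoldin genes, pfd-6 and pfd-5 had pooled promoter summits at ranks 8449 and 11199, and pfd-2, pfd-3 and pfd-4 had none. Among the substrates of CCT, 1 of 16 tubulin genes passed, namely the alpha-tubulin gene tba-2 (chromosome I, 12966740 to 12967079). It had a signal of 49.8 at rank 51, ranks of 137 and 57 in replicates 1 and 2, and a final peak.

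None of the 5 actin genes had a promoter summit among the strongest 1000. The best placed were act-3 at rank 5429 and act-1 at rank 5504, and act-5 had none. The mitochondrial chaperonin gene hsp-60, whose product folds proteins inside mitochondria, had a promoter region at rank 623 with a signal of 23.3. It ranked 400 in replicate 2 but 10453 in replicate 1. The gene of the heat shock factor, hsf-1, had a region at rank 10702.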

How the data were processed

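The data were ChIP-seq region lists of 2 biological replicates, their pool and a final IDR set. The authors called regions from the alignments of each replicate, or of both, and a further control file, per the deposited file list; no source used here names the aligner, the caller or the IDR threshold. The signal of each region, and the −log10 of its q value, are as deposited by the authors; q values were computed back from the latter. The ce10 lists were not used, since no annotation of that build was used. Genes and TSSs came from Ensembl release 115 for WBcel235 (the ce11 assembly). All region ends lay within its chromosomes, and coordinates count from base 1.

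Regions were assigned to genes with a minimum overlap of 1 bp (gene windows) or by summit (promoter windows), with Python 3.11.15, pandas 2.3.3 and numpy 2.4.6; the assignment was checked on simulated regions at known places. Ranks include 16 mitochondrial regions of replicate 1, and equal signals share the lowest rank. Members, lists and motifs were chosen with earlier results of these data known, so no test was run. Named were all 8 members, neighbours whose promoter window holds the strongest promoter summit, the 3 genes most like cct-1, and listed pathway genes in the strongest 1000 regions. The other neighbours (F25F2.1, zig-11, mrpl-50 and enol-1) and the other prefoldin, actin and hsf-1 ranks were named after their values were seen. So were C33A12.3 and C33A12.4. Alternatives were other windows, list lengths, a q value limit, the nearest TSS, and each replicate left out.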

Additional observations from a re-analysis of the deposited data

How the results depend on the processing

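Assigning each summit only to the gene of its nearest TSS changed every promoter count. It left 0 CCT genes with a pooled promoter summit, against 30.2% of all genes, and 0 in the strongest 1000 regions, against 2.15%. It also left 0 with a summit in both replicate lists, against 20.5%, and 0 with a final peak, against 0.441%. With pooled regions limited to a q value under 0.05, 2 genes had a region within 2000 bp (from 6), against 2.75% of all genes. A promoter summit was left for 2 (from 4), against 1.1% of all genes. Both times these were cct-1 and cct-8. Leaving out a replicate gave 1 to 2 genes with a promoter summit among the strongest 1000 (from 3): only cct-1 without replicate 1, and cct-1 and cct-8 without replicate 2. The median best rank was then 3581 without replicate 1 and 15421 without replicate 2. Under the other windows and list lengths, the counts kept within 1.5 times the reported ones. Leaving mitochondrial regions out of the ranks of replicate 1 was chosen after seeing the data. The same 2 genes were in the strongest 5000 of each replicate as with them, against 2.52% of all genes both ways. No paired analysis was possible because there was 1 group. Depth is unknown, so it cannot be said how many weak regions more reads would have added.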
